A study of Mus musculus with 6 samples.

Results

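The genes of the unfolded protein response of the endoplasmic reticulum (ER) and of the integrated stress response were followed in *Zic2* mutant mouse embryos. They are 34 genes chosen by function, of the 19057 genes with a probe under 1 symbol, and every probe that the array's annotation gives to one of the names was taken. All 34 had a probe, with 59 probes in all among the 45281 on the array. They fall into 13 ER chaperones and folding enzymes, 7 genes of ER-associated degradation, 4 genes that sense ER stress or pass the signal on (*Ern1*, *Atf6*, *Eif2ak3* and *Xbp1*) and 10 genes of *Atf4* and its targets. The samples were 6 pools of 8 stage-matched whole embryos at E8.0 to E8.5, each on 1 Illumina Mouse WG6 v2 array. In 3 pools the embryos were homozygous for *iso*, a chemically induced stop-gain allele of *Zic2*, which encodes a zinc finger transcription factor. The other 3 pools were of wildtype embryos, also from crosses between *iso* heterozygotes. Both genotypes were of the C3H/HeH strain, and the mutant is this 1 allele only. The *iso* mutation arose on C57BL/6J, so that a segment of that strain may still lie around *Zic2*. Embryos of both sexes were used.

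Proteins that are to be secreted or placed in membranes fold in the ER with the help of chaperones such as BiP (the product of *Hspa5*). When unfolded proteins build up, 3 sensors respond. IRE1 (*Ern1*) splices the mRNA of *Xbp1*, ATF6 is cleaved to release a transcription factor, and PERK (*Eif2ak3*) phosphorylates the translation factor eIF2α. IRE1 and ATF6 raise chaperones and degradation genes. PERK, and the related kinases that sense viral RNA or a lack of amino acids or haem, raise translation of *Atf4* mRNA. ATF4 switches on genes of amino acid supply and, with CHOP (*Ddit3*), of cell death. In the early embryo the visceral endoderm of the yolk sac is a tissue that secretes much protein. The array reads the amount of a transcript only, and neither *Xbp1* splicing nor eIF2α phosphorylation can be read from it.

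None of the 34 genes passed the test between genotypes (limma, adjusted p under 0.05 by the Benjamini-Hochberg method, taken over the 45281 probes), and the lowest adjusted p among their 59 probes was 0.475. Over the array 20 probes passed, which is 0.0442%. At an unadjusted p under 0.05 there were 3 of the 34 genes, all in the group of *Atf4* and its targets, where 7.65% of all genes had such a p. These were *Chac1* and *Ppp1r15a*, both lower in *Zic2* iso/iso embryos, and *Phgdh*, which was higher. The pools of the genotypes did not overlap in 4 of the 34 (*Chac1*, *Manf*, *Atf6* and *Eif2ak3*), beside 10.9% of all genes. The median log2 difference, *Zic2* iso/iso minus wildtype, was −0.032 over the 34 genes and −0.0038 over all genes. In at least 1 genotype, 27 of the 34 genes exceeded the background level. This level of 7.47 on the log2 scale was set from 1603 probes of olfactory receptors and other gene families with no known role in the early embryo. Among these 27 genes the pools did not overlap in 1, *Chac1*, while *Manf*, *Atf6* and *Eif2ak3* were below the level. The median size of a difference, without its sign, was 0.069 over these 27 genes and 0.071 over the 10845 genes of the array above that level. Over the 27 genes the 95% intervals of the single differences lay between −0.49 and 0.39, that is ratios of intensity between 0.713 and 1.31. In 9 of the 34 genes more than 1 probe was above the background level, and in 2 of these (*Sel1l* and *Sesn2*) such probes differed in sign. The background was not subtracted from the intensities, so that ratios of dim genes are closer to 1 than those of their transcripts.

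**Figure D1:**
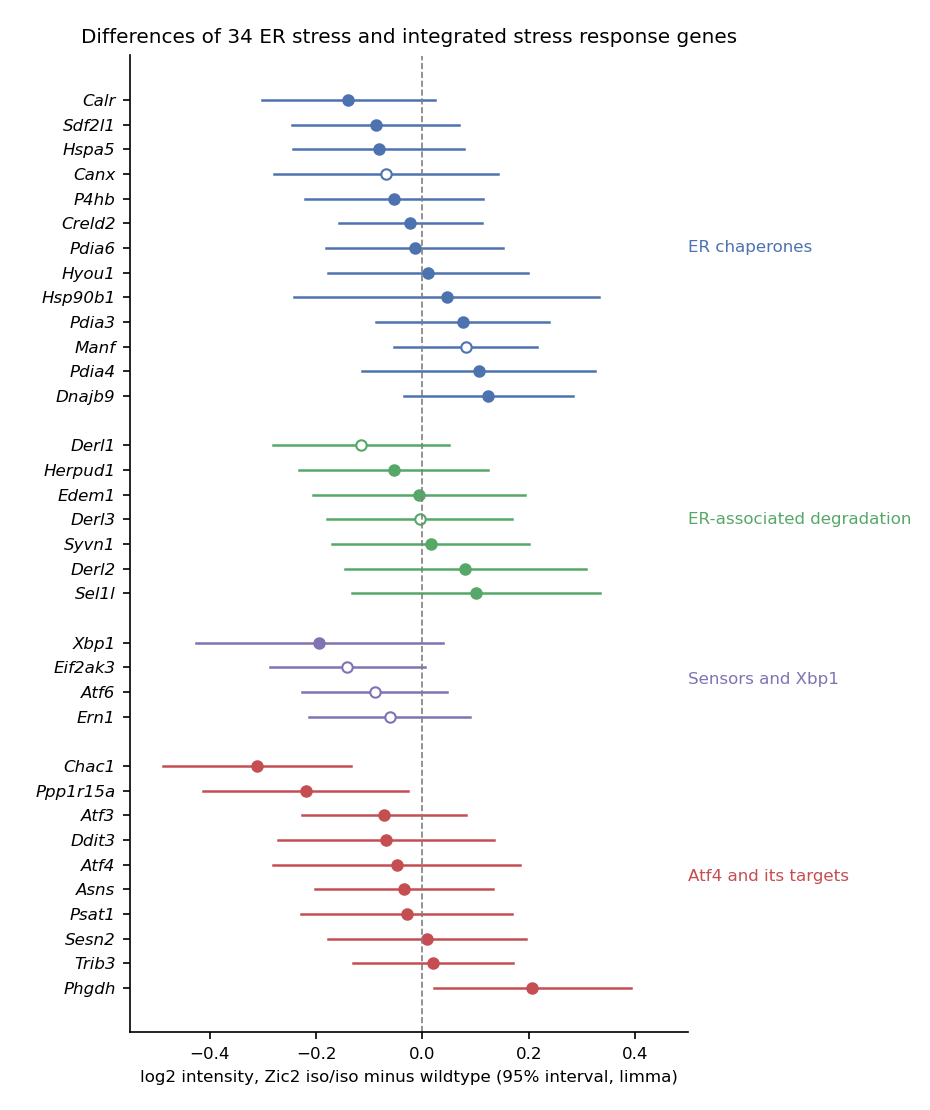
Difference in log2 intensity (horizontal axis, *Zic2* iso/iso minus wildtype) of each of the 34 genes, with 95% intervals from limma over 3 pools for each genotype, in the 4 groups. Open symbols are genes below the background level in both genotypes. The interval leaves out 0 in *Chac1*, *Ppp1r15a* and *Phgdh*.

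Since the groups are known for different response elements in their promoters, these elements were looked up and are shown here for the genes that lead each group. A promoter window of 250 bases before and 50 bases after a start was at hand for 30 of the 34 genes, in 32 windows (RefSeq, GRCm38.p6), with none at hand for *Atf6*, *Derl1*, *Hyou1* and *Manf*. The ER stress response element (ERSE) was searched as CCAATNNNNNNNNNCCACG on both strands. It was in 8 of the 32 windows, those of *Hspa5*, *Hsp90b1*, *Calr*, *Canx*, *Pdia6*, *Creld2*, *Syvn1* and *Derl3*, and in 0.119% of all 32851 windows (39 windows). Capitals mark the fixed letters of the element, 5′ to 3′ on the strand that carries it, with 12 bases on each side.
*Hspa5* (chr2:34772013-34772055, + strand): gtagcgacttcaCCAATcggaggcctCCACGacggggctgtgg
*Hsp90b1* (chr10:86705626-86705668, − strand): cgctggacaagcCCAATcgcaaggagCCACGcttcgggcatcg
*Hsp90b1* (chr10:86705521-86705563, + strand): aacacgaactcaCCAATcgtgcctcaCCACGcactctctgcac
*Canx* (chr11:50325788-50325830, − strand): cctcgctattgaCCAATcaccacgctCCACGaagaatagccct
*Syvn1* (chr19:6046520-6046562, + strand): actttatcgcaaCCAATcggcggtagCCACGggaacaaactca

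The element of *Hspa5* ended 47 bases before the start and that of *Syvn1* 26 bases before it, while *Hsp90b1* held 2 of them, on opposite strands, which ended 194 and 89 bases before its start. The 8 genes with the element had log2 differences of −0.14 (*Calr*) to 0.046 (*Hsp90b1*), with a median of −0.019, and the lowest unadjusted p from limma was 0.086.

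The second form of this element (ATTGGNCCACG) was in 1 member window, that of *Herpud1*, and in 0.0365% of all windows. The element bound by ATF4 with C/EBP partners (CARE) was searched as TGATGNAA. It was in 4 of the 11 windows of *Atf4* and its targets (*Chac1*, *Asns*, *Atf3* and *Trib3*), in that of *Herpud1* and in 3.97% of all windows. The element called UPRE (TGACGTGG) was in none of the 32 and in 0.676% of all windows. *Herpud1* is shown because it carries an element of either arm, and *Chac1*, *Asns* and *Atf3* because they share the ATF4 element.
*Herpud1*, ERSE-II (chr8:94386365-94386399, + strand): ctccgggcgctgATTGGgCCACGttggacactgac
*Herpud1*, CARE (chr8:94386305-94386336, − strand): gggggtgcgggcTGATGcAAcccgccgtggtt
*Chac1*, CARE (chr2:119351037-119351068, − strand): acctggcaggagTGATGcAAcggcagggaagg
*Asns*, CARE (chr6:7693213-7693244, − strand): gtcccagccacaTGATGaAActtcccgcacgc
*Atf3*, CARE (chr1:191183424-191183455, + strand): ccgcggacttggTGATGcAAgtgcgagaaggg

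The log2 differences of these 4 genes were −0.054 for *Herpud1*, −0.31 for *Chac1*, −0.035 for *Asns* and −0.073 for *Atf3*, and that of *Trib3* was 0.020. A match of letters is a description of the window and not a measured site, and a window without a match may still hold another form of the element.

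**Figure D2:**
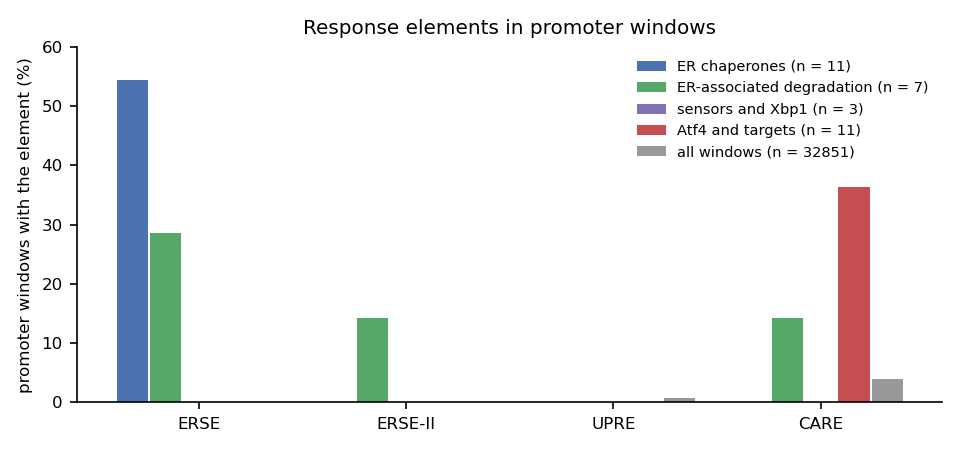
Percent of promoter windows (vertical axis) that hold each of 4 response elements on either strand, for the 4 groups of genes and for all 32851 windows. ERSE is in 54.5% of the 11 chaperone windows and 28.6% of the 7 degradation windows, and CARE in 36.4% of the 11 windows of *Atf4* and its targets, beside 0.119% and 3.97% of all windows.

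Before normalisation the median intensity of the arrays was 154 to 164 in 5 pools and 187 in *Zic2* iso/iso pool 1. The wildtype pools gave 8.00 to 8.27 for the brighter *Zic2* probe and the mutant pools 7.57 to 8.01, a log2 difference of −0.37 (adjusted p = 0.61 from limma). Its dimmer probe, at 7.42 in wildtype and 7.54 in mutant pools, gave 0.12. Since *iso* is a point mutation the level of its transcript does not check the genotype. Of 12 markers of embryo tissues 9 were above the background level, among them *Otx2* of the head, *Tbx6* of the presomitic mesoderm and *Nkx2-5* of the heart. The mutant mean was higher for 5 of the 12 and lower for 7. The largest log2 differences were 0.35 for *Mesp1* (adjusted p = 0.156 from limma), with no overlap of its pools, and −0.28 for *Meox1* (adjusted p = 0.74). Of 12 visceral endoderm markers 10 were above the background level, with *Ttr* at a mean of 13.51 in wildtype pools. The mean was higher in mutant pools for 10 of these 12 visceral endoderm markers, with *Apob* at a log2 difference of 0.50 (adjusted p = 0.147 from limma) and no overlap of its pools. Their mean level ranged from 9.76 to 10.12 in wildtype and from 9.89 to 10.33 in mutant pools, lowest in wildtype pool 1 and highest in *Zic2* iso/iso pool 1. Of 6 measured trophoblast and decidua markers 4 were above the background level, with *Prl2c2* at 11.08 and 11.12. The mutant mean was higher for 3 of the 6 and lower for 3. The largest difference was that of *Prl8a2*, at 7.92, 9.20 and 9.27 in wildtype and at 7.96, 8.64 and 8.39 in mutant pools. Its log2 difference was −0.46 (adjusted p = 0.91 from limma). The mean of the 6 was 8.45 to 8.68 in wildtype and 8.45 to 8.54 in mutant pools. The 7 measured markers of primitive blood had a mean level of 8.98 to 9.40 in wildtype and 8.36 to 9.44 in mutant pools. The mutant mean was lower for all 7, with log2 differences of −0.93 for *Hbb-bh1* and −0.80 for *Hba-x*, in which mutant pool 1 was the highest and mutant pool 3 the lowest of the 6 pools. None of these markers passed the test, and the part of such cells in the results below was not tested. In whole embryos, fewer cells of a type and less RNA in each cell cannot be told apart.

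Among the 13 ER chaperones and folding enzymes, 6 had a higher and 7 a lower mean in *Zic2* iso/iso embryos, with log2 differences of −0.14 to 0.12 and a median of −0.015. The background level was exceeded by 11 of them, and there was no gene that passed the test. *Hspa5*, which encodes the chaperone BiP that also holds the sensors inactive, was at 8.29, 8.24 and 8.44 in wildtype pools 1 to 3 and at 8.19, 8.33 and 8.20 in mutant pools 1 to 3. The pools overlapped, with a log2 difference of −0.082 (standard error 0.074, 95% interval −0.24 to 0.078). It was read by 1 probe. *Hsp90b1*, which encodes the chaperone GRP94, was at 12.95, 12.73 and 12.99 in wildtype and at 13.29, 12.65 and 12.86 in mutant pools. Its mutant pools held both the highest and the lowest value, so that the standard error (0.13) was the largest of the 34 genes. The log2 difference was 0.046 with all pools and −0.14 without *Zic2* iso/iso pool 1.

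*Calr* and *Canx* encode the lectin chaperones calreticulin and calnexin, which bind sugar chains of new glycoproteins. *Calr* was at 11.43, 11.39 and 11.37 in wildtype and at 11.12, 11.28 and 11.38 in mutant pools, a log2 difference of −0.14 (standard error 0.075). Of the mutant pools, pool 3 alone lay within the narrow range of the wildtype pools. The 1 probe of *Canx* gave 7.17 in wildtype and 7.10 in mutant pools, under the background level, so that no level of this gene could be read. The protein disulphide isomerase genes *P4hb*, *Pdia3*, *Pdia4* and *Pdia6* had log2 differences of −0.053, 0.076, 0.11 and −0.015, and the second probe of *Pdia6* gave −0.077. In *Pdia4* the spread was in the wildtype pools, at 11.10, 11.52 and 11.09, while the mutant pools lay at 11.34, 11.38 and 11.30 between them. Without wildtype pool 2 its log2 difference was 0.25 in place of 0.11, with an unadjusted p of 0.0063 and an adjusted p of 0.915 from limma.

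*Dnajb9*, which encodes the BiP partner ERdj4 and is a target of XBP1, had the highest difference among the chaperones. It was at 8.55, 8.40 and 8.39 in wildtype and at 8.65, 8.58 and 8.48 in mutant pools, a log2 difference of 0.12 (standard error 0.073, adjusted p = 0.90 from limma). Only wildtype pool 1 lay within the range of the mutant pools. Its second probe was below the background level, at 7.31 and 7.44. *Sdf2l1*, whose product helps BiP, and *Creld2* had log2 differences of −0.088 and −0.023. The second probe of *Creld2*, also above the background level, gave −0.12 (standard error 0.072), with all mutant pools (10.80, 10.82 and 10.64) below all wildtype pools (10.85, 10.94 and 10.83), while the pools of its brighter probe overlapped. *Hyou1*, which encodes an exchange factor of BiP, had a difference of 0.011. *Manf*, a gene for a secreted protein of the ER, had 1 probe, below the background level at 7.17 and 7.25. All of its mutant pools (7.25, 7.28 and 7.24) were above all of its wildtype pools (7.21, 7.18 and 7.13), with a log2 difference of 0.081.

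**Figure D3:**
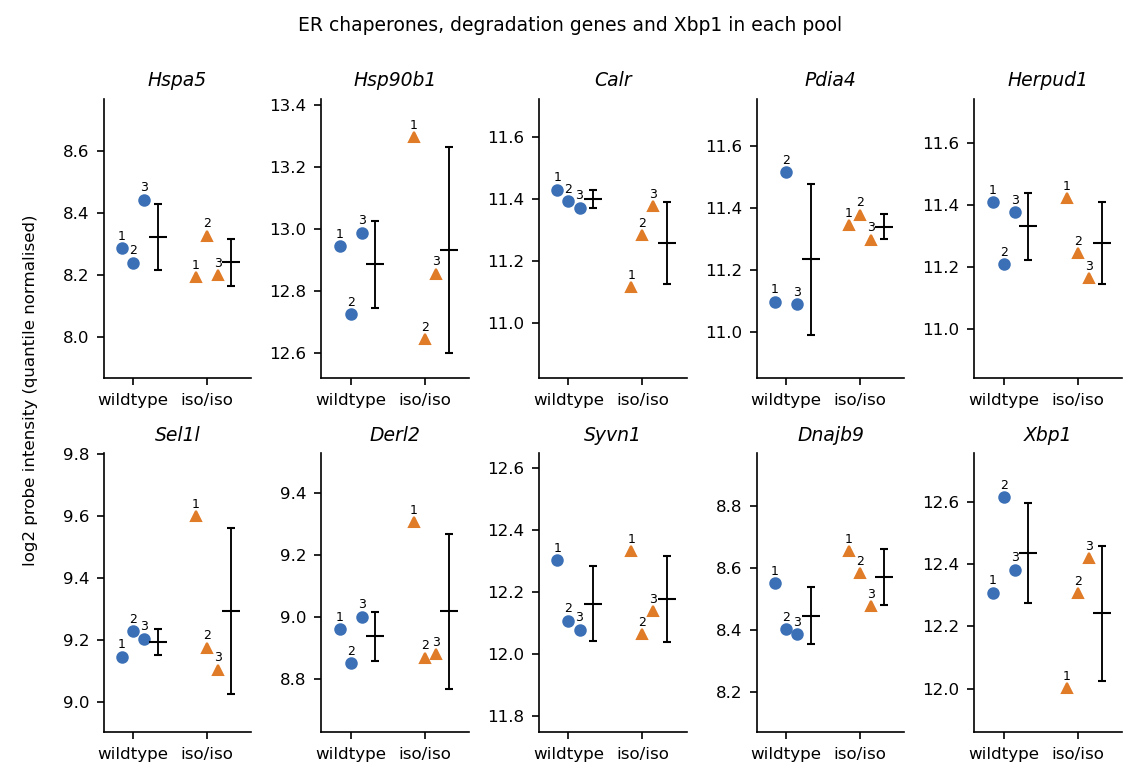
Quantile-normalised log2 intensity (vertical axis, the same span in each panel) of 10 genes in each wildtype (circles) and *Zic2* iso/iso pool (triangles), numbered by replicate. Black bars are the mean and SD of 3 pools. The genotypes overlap in every panel, and *Zic2* iso/iso pool 1 stands above the other pools of *Hsp90b1*, *Sel1l* and *Derl2* and below those of *Calr* and *Xbp1*.

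The 7 genes of ER-associated degradation, which draw misfolded proteins out of the ER for destruction by the proteasome, had log2 differences of −0.12 to 0.10 with a median of −0.0051. None of them passed the test, and 5 exceeded the background level. *Herpud1*, which encodes a scaffold of the degradation complex, was at 11.41, 11.21 and 11.38 in wildtype and at 11.42, 11.25 and 11.16 in mutant pools, with overlapping pools and a log2 difference of −0.054 (standard error 0.082). Its second probe was also above the background level and gave −0.091 (standard error 0.065). *Sel1l*, which encodes the adaptor of the ubiquitin ligase HRD1, was at 9.15, 9.23 and 9.21 in wildtype and at 9.60, 9.18 and 9.11 in mutant pools. Mutant pool 1 stood above the other pools, which lay between 9.11 and 9.23. The log2 difference of *Sel1l* was 0.10 (standard error 0.11) with that pool and −0.053 without it.

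*Syvn1*, which encodes HRD1 itself, was at 12.30, 12.11 and 12.08 in wildtype and at 12.33, 12.06 and 12.14 in mutant pools, a log2 difference of 0.016. The derlins form the channel through which the proteins leave. *Derl2* was at 8.960, 8.850 and 9.001 in wildtype and at 9.306, 8.869 and 8.879 in mutant pools, again with mutant pool 1 above the others, and its log2 difference was 0.081 with that pool and −0.063 without it. Its second probe above the background level gave 0.063. *Derl1* and *Derl3* did not reach the background level in either genotype. *Edem1*, which encodes a mannosidase-like protein that marks glycoproteins for degradation, had a log2 difference of −0.0065. *Zic2* iso/iso pool 1 was the highest of the mutant pools in 6 of the 7 genes, beside 32.8% of all genes above the background level. Of the 7, *Derl1*, among the 6, and *Derl3*, where mutant pool 2 was highest, were below that level. In the 26 other degradation genes measured, mutant pool 1 was the highest mutant pool in 10 and the lowest in 10. The mean level of the 7 genes was 9.29, 9.12 and 9.05 in the mutant pools, in the order 1 to 3, beside 9.21, 9.11 and 9.13 for the wildtype. The same mutant pool had the highest median intensity before normalisation and was the highest mutant pool in 9 of 12 visceral endoderm markers, and the part of either in these values was not tested.

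The genes of the 3 sensors were at the limit of the array. *Ern1*, *Atf6* and *Eif2ak3* did not reach the background level in either genotype with any probe, and the means of their brightest probes were 7.24 to 7.44. No level can be given for them. For *Eif2ak3* the brightest probe was at 7.42, 7.42 and 7.49 in wildtype and at 7.35, 7.21 and 7.34 in mutant pools, and for *Atf6* at 7.34, 7.36 and 7.30 against 7.29, 7.22 and 7.21. The genotypes were apart in these 2 genes, with log2 differences of −0.14 and −0.090, but the dimmer probe of *Eif2ak3* gave −0.043 and that of *Atf6* 0.029. *Xbp1*, which encodes the transcription factor made active by IRE1, was well above the background level in every pool. Its 1 probe was at 12.309, 12.617 and 12.383 in wildtype and at 12.001, 12.307 and 12.419 in mutant pools. The 2 sets overlapped, with mutant pool 1 as the lowest and wildtype pool 2 as the highest value. The log2 difference of −0.19 (standard error 0.11, 95% interval −0.43 to 0.038, adjusted p = 0.89 from limma) was −0.073 without that mutant pool and −0.10 without that wildtype pool.

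In the group of *Atf4* and its targets the mutant mean was lower in 7 and higher in 3 of the 10 genes, with a median log2 difference of −0.042. The background level was exceeded in at least 1 genotype by all 10, and none passed the test. *Chac1*, which encodes an enzyme that breaks down glutathione and a target of ATF4 and CHOP, had the largest difference of the 34 genes. It was at 8.22, 8.39 and 8.52 in wildtype pools 1 to 3 and at 7.98, 8.08 and 8.14 in mutant pools 1 to 3. The genotypes were apart, with the wildtype pools higher. The log2 difference was −0.31 (standard error 0.082, 95% interval −0.49 to −0.13), that is a ratio of 0.806 (0.713 to 0.911), with an unadjusted p of 0.0023 and an adjusted p of 0.475 from limma. An exact two-sided permutation test over the pools gave p = 0.1, the smallest that 3 pools against 3 allow. *Chac1* has 1 probe on the array and lies on chromosome 2 (119351242 to 119354326, GRCm38.p6).

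*Ppp1r15a* encodes GADD34, which brings a phosphatase to eIF2α and so ends the response. It was at 8.63, 8.82 and 9.01 in wildtype and at 8.56, 8.67 and 8.57 in mutant pools. Wildtype pools 2 and 3 lay above all mutant pools, while wildtype pool 1 lay among them. The log2 difference was −0.22 (standard error 0.089, 95% interval −0.41 to −0.027), with an unadjusted p of 0.029 and an adjusted p of 0.79 from limma. *Phgdh* encodes the first enzyme of serine synthesis. It was at 9.98, 9.93 and 10.07 in wildtype and at 10.38, 10.17 and 10.05 in mutant pools. Mutant pools 1 and 2 were above the wildtype pools and mutant pool 3 was not. The log2 difference was 0.21 (standard error 0.086, 95% interval 0.021 to 0.39, adjusted p = 0.79 from limma) and 0.11 without *Zic2* iso/iso pool 1. *Psat1*, which encodes the next enzyme of the same pathway, was at 11.89, 12.14 and 12.29 in wildtype and at 12.15, 12.03 and 12.07 in mutant pools, a log2 difference of −0.029.

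*Atf4* itself was at 11.23, 11.40 and 11.54 in wildtype and at 11.57, 11.13 and 11.32 in mutant pools. The pools overlapped, with a log2 difference of −0.049 (standard error 0.11, 95% interval −0.28 to 0.18), and its dimmer probe, near the background level, gave −0.10. *Ddit3*, which encodes CHOP, was at 7.83, 7.89 and 8.18 in wildtype and at 7.98, 7.95 and 7.76 in mutant pools. Its log2 difference was −0.069 with all pools and 0.037 without wildtype pool 3, the highest of the 6. The dimmer *Ddit3* probe, near the background level at 7.51 and 7.36, gave −0.16. *Asns*, the asparagine synthetase gene, was at 11.78, 11.77 and 11.89 in wildtype and at 11.75, 11.93 and 11.67 in mutant pools, with log2 differences of −0.035 and −0.077 for its 2 probes above the background level. *Trib3*, which encodes an inhibitor of ATF4, and *Sesn2*, a stress gene of the mTOR pathway, had log2 differences of 0.020 and 0.0084, and the second probe of *Sesn2* above the background level gave −0.11. *Atf3*, a further transcription factor gene of the response, stood near the background level at 7.54 and 7.46.

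**Figure D4:**
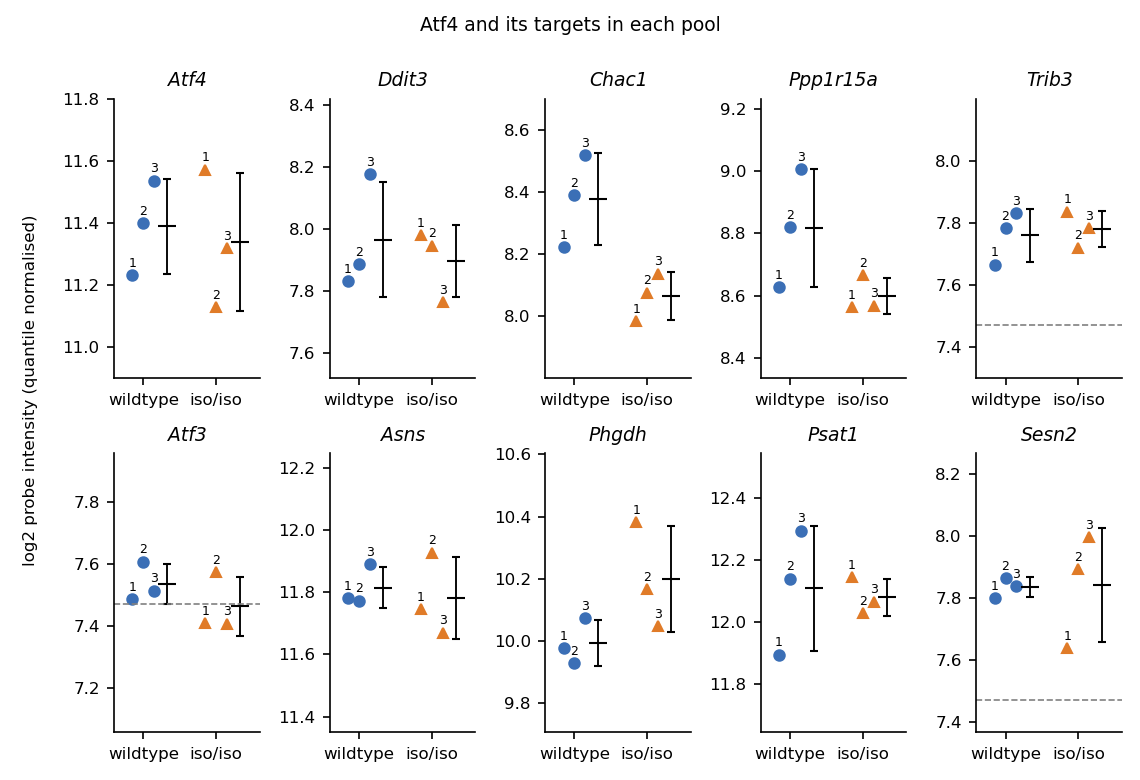
Quantile-normalised log2 intensity (vertical axis, the same span in each panel) of *Atf4* and 9 of its targets in each wildtype (circles) and *Zic2* iso/iso pool (triangles), numbered by replicate. Black bars are the mean and SD of 3 pools. The background level of 7.47 is dashed. The genotypes are apart in *Chac1* only, and wildtype pool 3 is the highest wildtype pool in 8 of the 10 panels.

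The genes of this group tended to share their order among the wildtype pools. Wildtype pool 3 was the highest wildtype pool in 8 of the 10 genes and wildtype pool 1 the lowest in 8 of the 10, beside 37.4% and 36.8% of all genes above the background level. The mean level of the 10 genes was 9.25, 9.36 and 9.47 in the wildtype pools, in the order 1 to 3, beside 9.32, 9.31 and 9.28 for the mutant. Wildtype pool 3 was thus 0.22 above wildtype pool 1. *Chac1* and *Ppp1r15a* had the same order, with wildtype pool 3 above wildtype pool 1 by 0.30 and 0.38. Without wildtype pool 3 the median log2 difference of the group was 0.018 in place of −0.042, that of *Chac1* was −0.24 and that of *Ppp1r15a* −0.13. Without wildtype pool 1 they were −0.11, −0.39 and −0.32. Wildtype pool 1 was also the lowest wildtype pool in 12 of 12 visceral endoderm markers. The mean level of the 6 trophoblast and decidua markers was 8.45, 8.59 and 8.68 in wildtype pools 1 to 3. Of these, *Prl8a2* rose in that order, while *Prl2c2* was highest in wildtype pool 1. The part of these tissues in the spread of the *Atf4* group was not tested. In the 35 other ATF4 targets measured, wildtype pool 3 was highest in 9, and the mean level was 9.66, 9.65 and 9.66 in wildtype pools 1 to 3. In the 13 chaperones wildtype pool 3 was highest in 3, with mean levels of 10.15, 10.14 and 10.10.

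**Figure D5:**
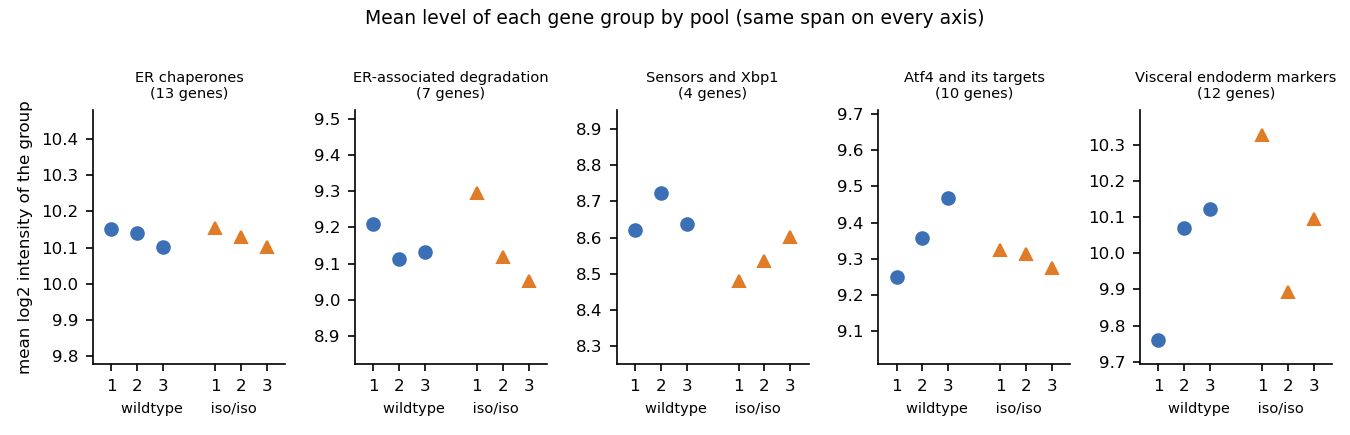
Mean log2 intensity (vertical axis, the same span in each panel) of the genes of each group in wildtype pools 1 to 3 (circles) and *Zic2* iso/iso pools 1 to 3 (triangles), with 12 visceral endoderm markers in the last panel. In *Atf4* and its targets wildtype pool 3 is at 9.47 and wildtype pool 1 at 9.25, with the mutant pools between them. The mean of sensors and *Xbp1* includes 3 genes below the background level.

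Other genes of the same pathways were taken from lists of 117 names, of which 110 had a probe. None of the 110 passed the test, and their median log2 difference was −0.0066. An unadjusted p under 0.05 was found in 8 of the 110 (3 higher and 5 lower in mutant pools), beside 7.65% of all genes, and pools that did not overlap in 7 of the 110, beside 10.9%. Neither count is above the share of all genes, and the genes named here are given as values. Of 28 other genes of ER folding, 2 were higher and 2 lower at that unadjusted level. They were *Cnpy3* (0.18) and *Ddost* (0.17), and *Rpn2* (−0.16) and *Txndc5* (−0.14). *Ddost* and *Rpn2* encode subunits of the same enzyme, the oligosaccharyltransferase that adds sugar chains to new proteins. Of 26 other degradation genes none had such a p, with *Ube2j2* at 0.16 and *Ufd1* at −0.15 as the largest differences above the background level. Of 22 other sensors and regulators 1 was lower. This was *Ppp1r15b*, which encodes CReP, the constant counterpart of GADD34. It was at 8.63, 8.28 and 8.63 in wildtype and at 8.16, 8.26 and 8.32 in mutant pools, where wildtype pool 2 lay among the mutant pools, a log2 difference of −0.27 (unadjusted p = 0.014, adjusted p = 0.73 from limma).

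Of 35 other ATF4 targets 1 was higher and 2 were lower at an unadjusted p under 0.05. *Slc38a2*, which encodes a transporter of neutral amino acids, was at 10.84, 10.77 and 10.64 in wildtype and at 11.18, 10.99 and 11.12 in mutant pools. Every mutant pool was above every wildtype pool, with a log2 difference of 0.34 (standard error 0.076, unadjusted p = 6.1e-04, adjusted p = 0.27 from limma). *Vldlr*, a lipoprotein receptor gene that ATF4 can raise, was at 9.59, 9.64 and 9.92 in wildtype and at 9.46, 9.49 and 9.45 in mutant pools. These too were apart, with a log2 difference of −0.25 (adjusted p = 0.70). *Mthfd2*, a mitochondrial enzyme gene of folate metabolism, had a log2 difference of −0.23 (adjusted p = 0.77). Of 17 measured chaperones of the cytosol and mitochondria, which belong to other stress responses, none passed the test and the median log2 difference was −0.043. The 1 with an unadjusted p under 0.05 was *St13* (−0.31, adjusted p = 0.66 from limma). None of 8 immediate early genes passed the test either, with a median of 0.0099. The 1 with an unadjusted p under 0.05 was *Klf6* (0.20, adjusted p = 0.75). The pools of the genotypes did not overlap in 2 of the 17 chaperones (*St13* and *Dnajb1*) and 2 of the 8 immediate early genes (*Klf6* and *Jun*). All of these were lower in mutant pools except *Klf6*. Pools that did not overlap were found in 10.9% of all genes, and an unadjusted p under 0.05 in 7.65%.

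*Dnajc3* encodes the ER chaperone P58IPK and was left out of the 34 genes. Its brighter probe was at 9.16, 9.22 and 9.02 in wildtype and at 9.99, 9.74 and 9.83 in mutant pools. The log2 difference of 0.72 passed the test (adjusted p = 0.0048 from limma). Its second probe, below the background level at 7.19 in wildtype and 7.17 in mutant pools, gave −0.022. *Dnajc3* lies on chromosome 14 (118937932 to 118981702, GRCm38.p6). *Zic2* lies near it on the same chromosome (122475384 to 122480328), while none of the 34 genes lies on that chromosome. An effect of *Zic2* on *Dnajc3* and one of a strain segment carried with *iso* cannot be told apart here.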

How the data were processed

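The authors deposited 1 intensity per probe for each of 6 arrays, on a linear scale, neither background-subtracted nor normalised between arrays, although the methods name a variance stabilising normalisation. The software that summarised the scans is not given in the sources used here. Values were floored at 1, taken to log2, quantile normalised and fitted with limma 3.58.1 in R 4.3.3 (lmFit, eBayes, no covariates), and p-values were adjusted over all 45281 probes by the Benjamini-Hochberg method. Group and replicate came from the sample titles.

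Symbols came from the array's annotation (34885 probes with 1 symbol, 18 with several, 10378 with none). The brightest probe over all pools stands for a gene. For other pathway genes and markers only that probe is given, although some of them, such as *Slc38a2* and *Vldlr*, have more. Of the 117 other pathway names, 6 matched by an older symbol and 7 not at all. For the background level, 1603 probes of olfactory receptors, vomeronasal receptors, beta-defensins and keratin-associated proteins were averaged over the pools on the log2 scale, and their 95th percentile was taken. Pools correlated at 0.993 to 0.995 across probes.

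The members, lists and groups were chosen with earlier results of these data known. Every member is named. Values in every pool are given for the heads of each branch and for members whose pools do not overlap or with an unadjusted p under 0.05. *Calr*, *Dnajb9*, *Pdia4*, *Psat1*, *Derl2* and *Syvn1* were added after their values were seen. So were *Prl8a2*, *Mesp1*, *Meox1*, *St13*, *Dnajb1*, *Klf6* and *Jun*, which are not members. Of the other lists, the 2 largest differences above the background level are named, with, added after their values were seen, those of an unadjusted p under 0.05. Of the former, *Pdia5* (−0.18), *Rtcb* (−0.14), *Ube2j2* and *Ufd1* had an unadjusted p above 0.05. The fit was tested on simulated data. With 3 arrays per genotype, precision is limited by their number. Alternatives were other normalisations (none, median, variance stabilising, rewritten here), normexp with an offset of 50, a filter on dim probes, other variance priors, array weights, the replicate block, each pool left out, the mean of a gene's probes and other thresholds.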

Additional observations from a re-analysis of the deposited data

How the results depend on the processing

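No member passed the adjusted threshold of 0.05 in any of the 16 alternative fits, and none passed 0.10 in the reported one. The lowest adjusted p was 0.156 (*Chac1* without wildtype replicate 1). At an unadjusted p of 0.05 there were 3 members and 8 other pathway genes. The log2 difference of *Chac1* was −0.41 to −0.23 over the 16, that of *Ppp1r15a* −0.32 to −0.13 and that of *Phgdh* 0.11 to 0.29, with an unadjusted p under 0.05 in 15, 9 and 7 of them. The sign turned in 0 to 11 of the 34 genes, most often without normalisation between arrays. The median of the chaperones (−0.015) was 0.030 with median centring, 0.079 without normalisation and −0.044 to 0.046 with 1 pool left out. The median of the sensors and *Xbp1* (−0.12) was −0.061 with the mean of a gene's probes, −0.066 without normalisation, −0.18 with normexp, −0.19 with bright probes only (*Xbp1* alone) and −0.19 with variance stabilising normalisation. The cause of these moves was not tested, except that bright probes alone leave *Xbp1*. With 1 pool left out, the medians were −0.13 to −0.090 for the sensors and *Xbp1*, −0.063 to 0.077 for the degradation genes and −0.11 to 0.018 for *Atf4* and its targets. With the replicate block 0 members and 0 other pathway genes were called. The deviations of pools with the same number correlated at −0.082 to −0.013 across probes, which gave no sign of a pairing by number. The sample titles do not say whether pools of the same number were collected or handled together, and such a correlation cannot show it.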
